A study of Mus musculus with 3 samples.

Results

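The largest change of substrate in this experiment, from tissue culture plastic (TCP) to a gelatin hydrogel that carries the heparin-mimicking polymer PSS (GelMA-PSS), was described gene by gene in c2c12 cells. This immortalized mouse myoblast line forms multinucleated myotubes when serum is reduced. All cells were kept in myogenic induction medium (DMEM with 2% horse serum) for 2 days, either on plain plates (TCP) or on a hydrogel of 15% methacrylated gelatin (GelMA) with 1% poly(sodium 4-styrenesulfonate) (PSS). A further library came from GelMA without PSS, so 2 of the 3 libraries of the series enter the comparison and the GelMA library is given beside them. With 1 library per substrate, the differences below have no replicate check and carry no p-value. The step from TCP to GelMA-PSS changes both the gel and the polymer, which cannot be told apart within this pair.

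The counts summed to 119799095 on TCP, 87071144 on GelMA and 192171443 on GelMA-PSS. Counts were scaled to CPM, each count divided by the size of its library, with TMM factors of 1.02, 1.04 and 0.943, which correct the totals for genes that take up unequal shares of the reads. Of 23238 gene symbols, 13051 had a CPM of 1 or more on TCP or GelMA-PSS and were kept. The 10187 symbols left out held 0.0986% of the counts on TCP and 0.0854% on GelMA-PSS. Gm10584 was the gene just inside this limit, with a highest CPM of 1.00, and Mov10l1 the gene just outside it, with 0.994. Each ratio below is the log2(CPM + 1) of GelMA-PSS minus that of TCP, a scale on which changes of scarce genes appear smaller than they are. A gene is said to have risen or fallen when this ratio passed 2-fold. Confidence intervals are at 95%, cover counting error only, and would be wider if read pairs had been counted as 2 reads. For the 8835 genes at or above a CPM of 10 in both libraries, each limit of such an interval lay within 7.55% of the ratio of CPM values.

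Myogenesis proceeds in steps. Myoblasts that express Myf5 and Myod1 leave the cell cycle, switch on Myog and the Mef2 factors, fuse, and then assemble sarcomeres, in which thick filaments of myosin slide along thin filaments of actin that are anchored at the Z-disc. Titin spans each side of the sarcomere and nebulin runs along the thin filament, and both are encoded by exceptionally long transcripts. Cells that are still cycling express the kinases and kinetochore proteins of mitosis, whose promoters often hold CHR elements and CCAAT boxes. Low oxygen stabilizes the transcription factor HIF1, which binds the hypoxia response element and drives genes of glycolysis, acid removal and mitochondrial clearance.

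Promoters of 4 genes of mitosis and of the hypoxia response are shown first, as examples from 2 lists in which 20 of 64 and 13 of 37 genes rose on GelMA-PSS and 0 fell. Each run holds the 250 bases before the transcription start in RefSeq (GRCm38.p6), 5′ to 3′ on the strand of the gene. For Bnip3 (chr7:138909507-138909756, minus strand) and Pgk1 (chrX:106186850-106187099, plus strand), capitals mark the core ACGTG of the hypoxia response element on either strand, with overlapping matches merged.
Bnip3: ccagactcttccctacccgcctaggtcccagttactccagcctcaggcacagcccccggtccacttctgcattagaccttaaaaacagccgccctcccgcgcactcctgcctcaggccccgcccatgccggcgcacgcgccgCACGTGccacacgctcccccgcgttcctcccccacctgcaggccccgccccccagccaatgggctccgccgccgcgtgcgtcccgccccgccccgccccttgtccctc
Pgk1: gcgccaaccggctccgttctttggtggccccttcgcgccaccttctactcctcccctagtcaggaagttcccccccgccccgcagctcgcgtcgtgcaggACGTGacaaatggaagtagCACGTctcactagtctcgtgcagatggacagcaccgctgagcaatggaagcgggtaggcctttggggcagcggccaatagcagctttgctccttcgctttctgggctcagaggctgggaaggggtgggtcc
For Cdk1 (chr10:69352913-69353162, minus strand) and Cks2 (chr13:51644982-51645231, plus strand), capitals mark the CHR element TTTGAA and the CCAAT box on either strand.
Cdk1: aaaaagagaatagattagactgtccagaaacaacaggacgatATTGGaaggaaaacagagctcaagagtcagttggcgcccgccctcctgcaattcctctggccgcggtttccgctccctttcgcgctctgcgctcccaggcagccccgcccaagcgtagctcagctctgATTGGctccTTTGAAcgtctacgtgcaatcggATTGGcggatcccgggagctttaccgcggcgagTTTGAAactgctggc
Cks2: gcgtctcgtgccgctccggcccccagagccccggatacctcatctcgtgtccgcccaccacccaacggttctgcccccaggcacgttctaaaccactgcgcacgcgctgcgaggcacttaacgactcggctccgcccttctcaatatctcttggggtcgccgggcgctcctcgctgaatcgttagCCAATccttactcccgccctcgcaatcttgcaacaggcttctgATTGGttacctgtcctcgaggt
Matches to these letters describe the sequence and are not evidence of binding. The shares below use no library. Several of the lists hold known targets of the factor whose site was sought, so a higher share there describes the list only. In the full windows of 250 bases before to 50 after the start, ACGTG was present in 55.8% of 52 promoters of the glycolysis and hypoxia list, against 19.6% of all 32851 mouse promoters. The motif TTTGAA occurred in 69.6% of 56 promoters of the mitotic list, against 17.9% of all promoters, and CCAAT in 73.2% against 37.4%. The E-box CAGCTG, of the type bound by MyoD, was in 33.3% of 21 thick filament promoters, 47.1% of 17 thin filament promoters and 35.3% of 34 Z-disc promoters, against 16.3% of all. The interferon-stimulated response element (ISRE) was in 37.5% of 32 promoters of interferon-stimulated genes against 3.44% of all promoters, the antioxidant response element TGACNNNGC in 27.8% of 36 NRF2 target promoters against 12.4%, and the TEAD site CATTCC in 48.1% of 27 promoters of YAP and TEAD targets against 14.7%.

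Most genes differed little between the substrates. Of the 13051 genes, 75.2% lay within 1.5-fold, the median ratio was 0.04 and the quartiles were -0.31 and 0.35. At 2-fold, 490 genes were higher on GelMA-PSS (3.75% of the genes kept) and 412 were lower (3.16%), which are the shares to read each gene group against. At 4-fold, 32 genes were higher and 22 lower. Without TMM factors the split was 338 higher and 576 lower, and with TPM and no TMM factors, the setting meant by TPM below, it was 142 higher and 1037 lower, while the median of all genes moved by -0.10 and by -0.35.

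**Figure D1:**
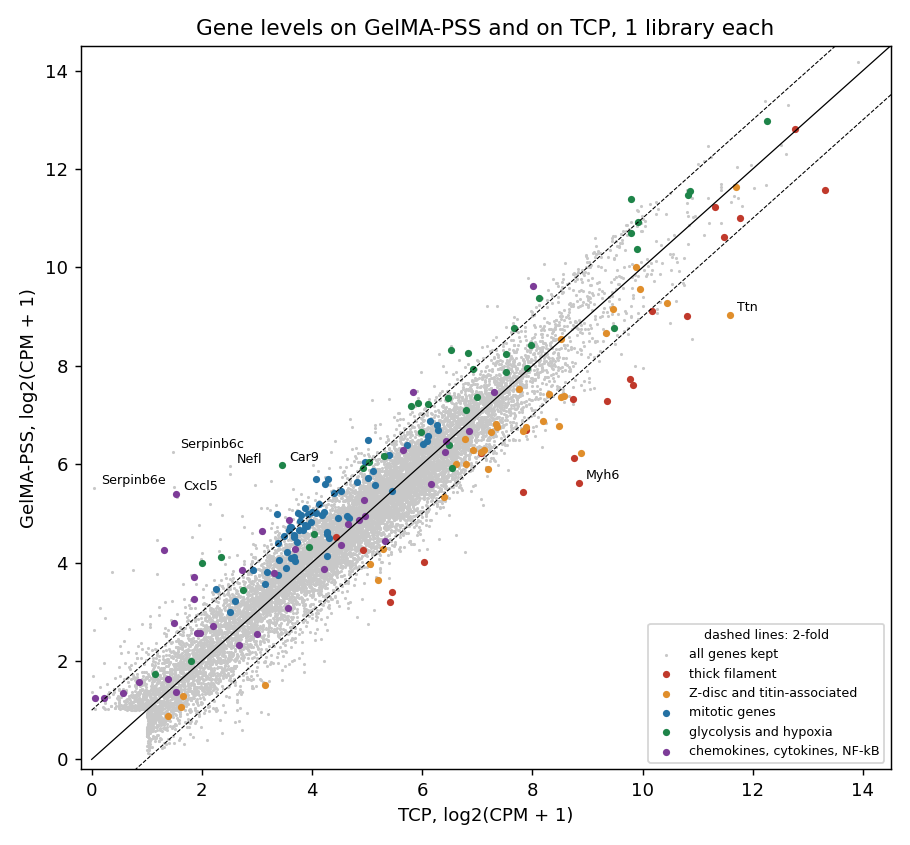
Each point is 1 of the 13051 genes kept, with log2(CPM + 1) on TCP on the horizontal axis and on GelMA-PSS on the vertical axis (1 library each), and coloured points are members of 5 gene lists. Thick filament and Z-disc genes lie at or below the diagonal with few exceptions, mitotic and glycolysis genes mostly above it, and a handful of genes, Serpinb6c and Cxcl5 among them, lie far above the upper 2-fold line.

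Transcript length moved with the ratio and has to be read beside every gene group. Length was known for 12947 genes, and across these genes Spearman's rho of the ratio with it was -0.52, whereas rho with GC content was -0.01. Genes are not independent replicates, so rho is a description. With genes split into 10 equal bins by length, the bin of the shortest transcripts had a median ratio of 0.52 and 13.9% had risen. In the bin of the longest transcripts the median was -0.49 and 11.5% had fallen. For GelMA against TCP, the medians of the same bins were -0.05 and 0.14. The median transcript had 1605 bases among genes that rose and 5271.5 among genes that fell, compared with 3066 among all. A loess correction for length and GC content left 261 genes higher (2.02%) and 303 lower (2.34%), of which 220 and 211 were also called without it. Ratios called corrected below come from this fit.

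**Figure D2:**
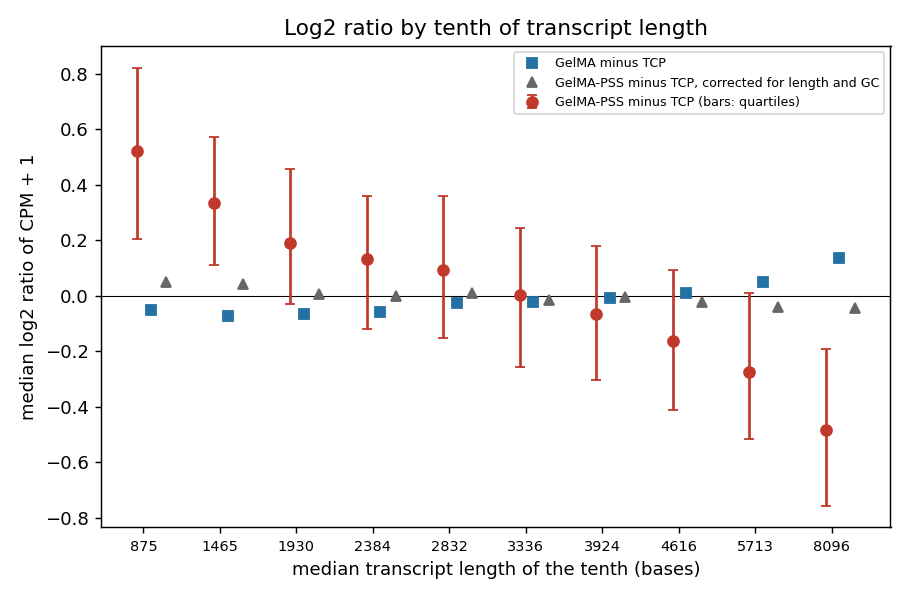
The horizontal axis gives the median transcript length of each of 10 bins of genes in bases, and the vertical axis the median log2 ratio, with quartiles as bars for GelMA-PSS minus TCP. The medians for GelMA-PSS minus TCP go from 0.52 in the shortest bin to -0.49 in the longest, those for GelMA minus TCP stay between -0.07 and 0.14, and the corrected medians lie near 0.

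Other signs of RNA composition also differed between the libraries. The precursor of ribosomal RNA, Rn45s, had a CPM of 1565 on TCP, 2276 on GelMA and 638 on GelMA-PSS. For the nuclear noncoding RNA Malat1 the values were 557, 1344 and 185. Both were lowest on GelMA-PSS. Ribosomal protein genes took 4.70% of the counts on TCP, 5.25% on GelMA and 8.96% on GelMA-PSS. In all 3 libraries the gene with the highest CPM was H19, an imprinted noncoding RNA of embryonic muscle, with CPM values of 15345, 14726 and 18364. The part of these differences in the results below was not tested beyond the length correction. In bulk RNA, fewer cells of a type and less RNA per cell cannot be told apart.

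Genes of the thick filament had the lowest median of the lists. Of 22 thick filament genes listed, 21 were kept, of which 14 fell and 0 rose, with a median ratio of -1.75. After the correction the median was -1.41 and 14 genes were lower, 12 of them among the 14 that fell without it. Their share of all counts was 3.40% on TCP, 2.21% on GelMA and 1.73% on GelMA-PSS. The myosin heavy chain genes, which encode the motor itself, led the list.

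Myh6, the alpha cardiac heavy chain (chr14:54941921-54966927 on GRCm38), had a CPM of 457 on TCP, 144 on GelMA and 48.4 on GelMA-PSS. Its ratio was -3.21, a 9.43-fold lower CPM, and it was the largest decrease of any gene kept. The antisense transcript Mhrt lies beside it, from 54968678 to 54974349 on the same chromosome, and read 109, 40.4 and 17.6 CPM. Although the methods describe strand-specific reads, how strand was used in counting is not known, so the values of Mhrt and its myosin neighbours are uncertain. The myosin genes also share similar sequence, and the counting could have split reads among them.

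On chromosome 11, the embryonic heavy chain Myh3 had a CPM of 10182 on TCP, 6355 on GelMA and 3037 on GelMA-PSS, a ratio of -1.75. Per kb of transcript it was the most abundant of the named heavy chain genes, with 1688 CPM per kb on TCP and 503 CPM per kb on GelMA-PSS. The fast adult genes Myh4 and Myh1 had ratios of -2.62 and -1.80. The perinatal gene Myh8 had -2.22 and the extraocular gene Myh13 -2.40. Each of these heavy chain genes was lowest on GelMA-PSS and at an intermediate level on GelMA.

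The light chains did not move as one. Myl2, the slow and ventricular regulatory chain, had a CPM of 41.8 on TCP, 12.5 on GelMA and 8.21 on GelMA-PSS, and fell by 2.22 on the log2 scale. Its transcript has 889 bases, and its corrected ratio was -2.72. Mylpf, the fast regulatory chain, had 6926 CPM on TCP, 4853 on GelMA and 7158 on GelMA-PSS, a ratio of 0.05 that was -0.48 after the correction.

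Actins, troponins and tropomyosins of the thin filament differed much less. Of 18 genes kept, 1 fell and 0 rose, and the median ratio was -0.36. After the correction, 4 were lower and the median was -0.66, since the transcripts are short (median 1459.5 bases). Neb was the gene that fell, from 1897 CPM on TCP and 1635 on GelMA to 374 on GelMA-PSS, with a ratio of -2.34 and a corrected ratio of -1.37. Acta1, skeletal actin, read 6192, 5379 and 5059.6 CPM. Cardiac troponin T, Tnnt2, read 4863, 3181 and 3288 CPM, a ratio of -0.56.

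At the Z-disc, 15 of 35 genes fell and 0 rose, with a median of -0.82. The corrected median was -0.81, with 8 genes lower, 5 of them among the 15. Titin, Ttn (chr2:76703980-76982547), had 3073, 2808 and 522 CPM and a ratio of -2.55, which the correction reduced to -0.73, its transcript having 106824 bases. The bin of the longest transcripts has a median of 8096 bases, so corrected ratios of far longer transcripts, as of Ttn, are less certain. Levels of Ttn were close on TCP and GelMA and far lower on GelMA-PSS. Actn2, sarcomeric alpha-actinin, has a transcript of 3013 bases, near the median, and its ratio and its corrected ratio were both -1.70. Des, the muscle intermediate filament desmin, was the most abundant member and read 3299, 2863 and 3154 CPM, a ratio of -0.06.

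Release of calcium from the sarcoplasmic reticulum couples the action potential to contraction. In the list for this process 7 of 25 genes fell and 0 rose, with a median of -0.77. After the correction the median was -0.69, with 5 lower. The calcium release channel Ryr1 had a CPM of 1023 on TCP, 868 on GelMA and 248 on GelMA-PSS, a ratio of -2.04 (corrected -1.15). The sodium channel Scn4a had a ratio of -1.78, and the voltage sensor Cacna1s -1.42. Bin1, which shapes T-tubules, was the most abundant member, at 2229.9, 1510.1 and 1613 CPM.

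All 14 kept genes of the acetylcholine receptor and endplate had negative ratios, with a median of -0.55, but only Lrp4, the agrin receptor (-1.29), and Colq, the collagen tail of acetylcholinesterase (-1.21), passed 2-fold. After the correction they were at -0.79 and -1.22. In the dystrophin glycoprotein complex 5 of 22 genes fell, with a median of -0.26, and 1 was lower after the correction. Dag1, dystroglycan, was the most abundant of them and went from 726 CPM on TCP and 539 on GelMA to 348 on GelMA-PSS, a ratio of -1.06 and a corrected ratio of -0.78. The dystrophin paralog utrophin, Utrn, had a ratio of -1.12, or -0.45 corrected.

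Among the 25 kept genes for transcription factors that control myogenesis, 1 rose and 1 fell, with a median of -0.15. Myog, which drives terminal differentiation, had a CPM of 1099.9 on TCP, 895 on GelMA and 1037 on GelMA-PSS, a ratio of -0.09. Myod1 had 94.3, 105 and 119 CPM, a ratio of 0.34. Both lay well inside 2-fold.

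Mef2c, a partner of Myog at muscle promoters (chr13:83504034-83667080), was the one that fell, from 289 CPM on TCP and 181 on GelMA to 81.0 on GelMA-PSS. Its ratio of -1.82 was -1.61 after the correction. Myf5, the factor of proliferating myoblasts, was the one that rose, from 13.9 and 19.5 to 36.5 CPM, a ratio of 1.33. Its relative in cycling cells, the HLH inhibitor Id3, rose from 15.2 and 26.0 to 62.1 CPM, a ratio of 1.96. In the list of progenitor genes and Id proteins, 2 of 22 rose and 0 fell, with a median of 0.21 that was -0.16 with TPM and no TMM factors. Cd34, a surface marker of progenitors, was the other gene that rose (1.02, corrected 0.89).

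Few genes of myoblast fusion passed 2-fold. Of 39 genes, 3 fell and 0 rose, beside 3.16% and 3.75% of all genes, with a median of -0.20. After the correction, 0 of these 3 and 1 other were lower. The fusogen Mymk, listed as Tmem8c, read 1029.8 CPM on TCP, 773 on GelMA and 670 on GelMA-PSS, a ratio of -0.62. Its partner Mymx, listed as Gm7325, read 226, 175 and 234 CPM, a ratio of 0.05. In muscle metabolism, 1 of 27 genes rose and 2 fell, with a median of -0.39, and 0 were higher and 3 lower after the correction. Muscle glycogen phosphorylase, Pygm, was lower (-1.30), as was the fatty acid carrier Fabp3 (-1.05).

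**Figure D3:**
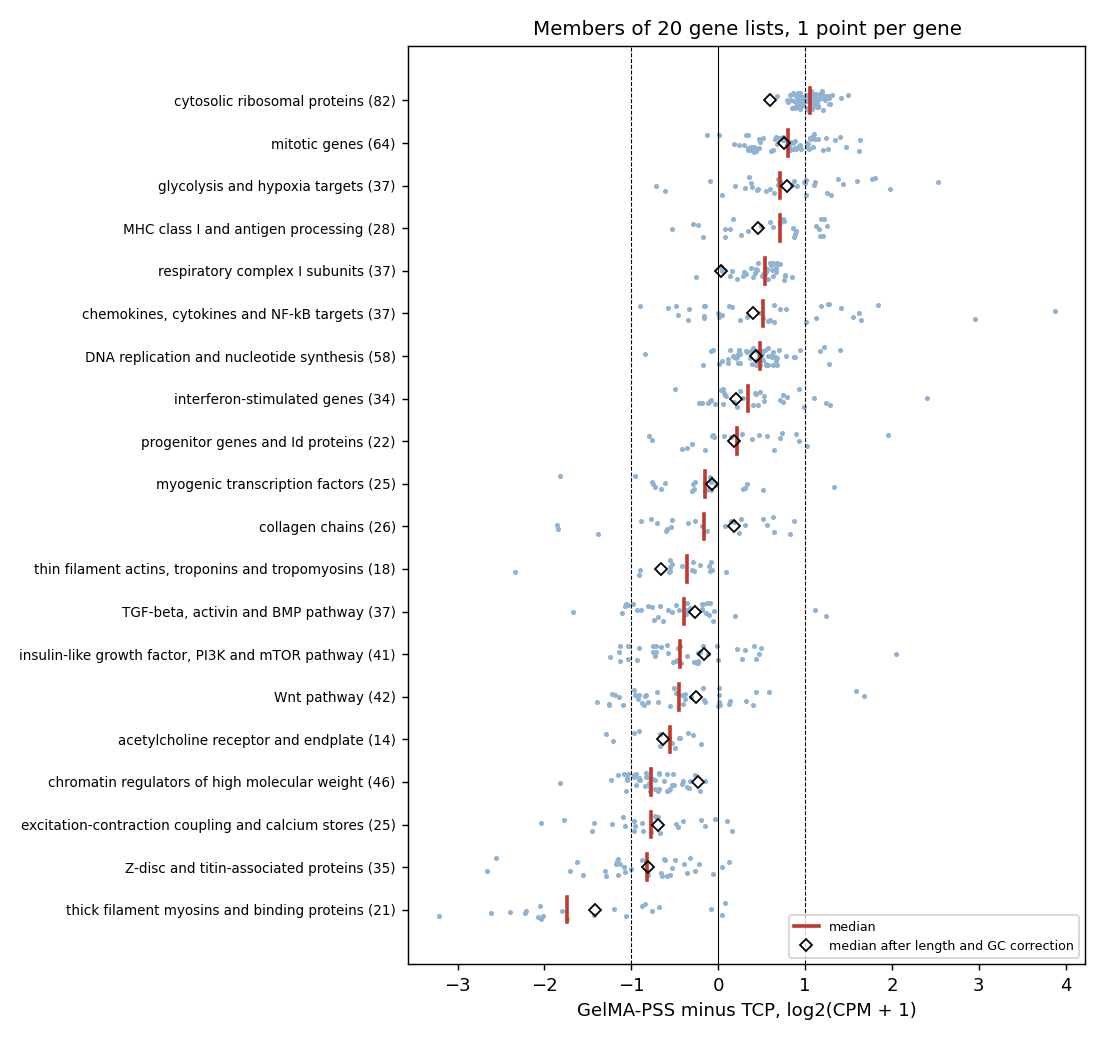
Each point is a gene of 1 of 20 lists, placed by its log2(CPM + 1) on GelMA-PSS minus that on TCP, with the number of genes kept in brackets, the list median as a red bar and the median after the length and GC correction as a diamond. Dashed lines mark 2-fold. Medians run from -1.75 in the thick filament to 1.06 in cytosolic ribosomal proteins, and the diamond of the ribosomal, respiratory and chromatin lists lies far from the bar.

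Mitotic genes lay above TCP almost throughout. Of 64 kept, 20 were higher and 0 lower by 2-fold, and 63 had a positive ratio. The median was 0.80, and 0.75 after the correction, with 9 genes higher, 7 of them among the 20. Cdk1, the kinase that starts mitosis (chr10:69335146-69352938), had a CPM of 31.4 on TCP, 44.5 on GelMA and 88.9 on GelMA-PSS. This is a 2.83-fold higher CPM with an interval of 2.73 to 2.93. Its promoter above holds 2 copies of TTTGAA, 71 and 15 bases before the start, and 3 CCAAT boxes.

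Cks2, which binds the same kinase, and whose promoter above holds 2 CCAAT boxes, read 15.8, 22.4 and 51.2 CPM, a ratio of 1.63 that was 0.995 after the correction. Securin, Pttg1, which holds sister chromatids together until anaphase, had a ratio of 1.62 (corrected 1.30), and the centromeric histone Cenpa 1.40 (corrected 1.05). The topoisomerase Top2a, one of the longer mitotic transcripts at 5221 bases, read 76.5, 114 and 110 CPM, a ratio of 0.52. In DNA replication and nucleotide synthesis, 4 of 58 genes rose and 0 fell, with a median of 0.48, and 1 was higher after the correction. Gmnn, the inhibitor of replication licensing, and Rpa3, a subunit of the single-strand binding complex, had ratios of 1.40 and 1.28, which were 0.98 and 0.59 corrected. The gene that stayed higher was Gins2, of the replication helicase (1.22, corrected 1.32). Rrm2, which had the highest CPM of the list in each library, was at 163 CPM on TCP, 152 on GelMA and 164 on GelMA-PSS.

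Of the genes that hold or release the cell cycle brake, 1 of 30 rose and 0 fell. It was cyclin D1, Ccnd1, at 28.6 CPM on TCP, 58.1 on GelMA and 74.4 on GelMA-PSS, a ratio of 1.35. The CDK inhibitor Cdkn1a, which rises as myoblasts leave the cycle, was the most abundant of them and read 1480.4, 1204 and 1186 CPM, a ratio of -0.32.

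Glycolysis enzymes and targets of hypoxia had many members that rose. Of 37 genes kept, 13 were higher and 0 lower by 2-fold. The median was 0.71, and 0.79 after the correction, with 13 genes higher, 12 of them the same as before it. Summed over the list, the CPM was 15533 on TCP, 18989 on GelMA and 26448 on GelMA-PSS.

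Car9 encodes carbonic anhydrase 9, an enzyme with a part in acid removal in hypoxic cells. Its CPM was 10.0 on TCP, 35.0 on GelMA and 62.6 on GelMA-PSS, a 6.25-fold higher CPM than on TCP (interval 5.89 to 6.64). Bnip3, which marks mitochondria for removal, read 90.7, 155 and 318 CPM, a ratio of 1.80, and the palindrome CACGTG begins 108 bases before its start. The ankyrin repeat gene Ankrd37, a HIF1 target, had a ratio of 1.77, and the aldolase Aldoc 1.98. All 4 genes were lowest on TCP and highest on GelMA-PSS.

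Among the enzymes of the main pathway, lactate dehydrogenase, Ldha, read 969 CPM on TCP, 1307 on GelMA and 1947 on GelMA-PSS, a ratio of 1.01 that was 0.77 after the correction. Pgk1, phosphoglycerate kinase, read 884, 1470 and 2668 CPM, a ratio of 1.59, with ACGTG 150 and 131 bases before the start, and was chosen here for its promoter after its values had been seen. Gapdh, the most abundant member, stood at 4903, 5291 and 8034 CPM, a ratio of 0.71. Oxygen was not measured in these files.

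**Figure D4:**
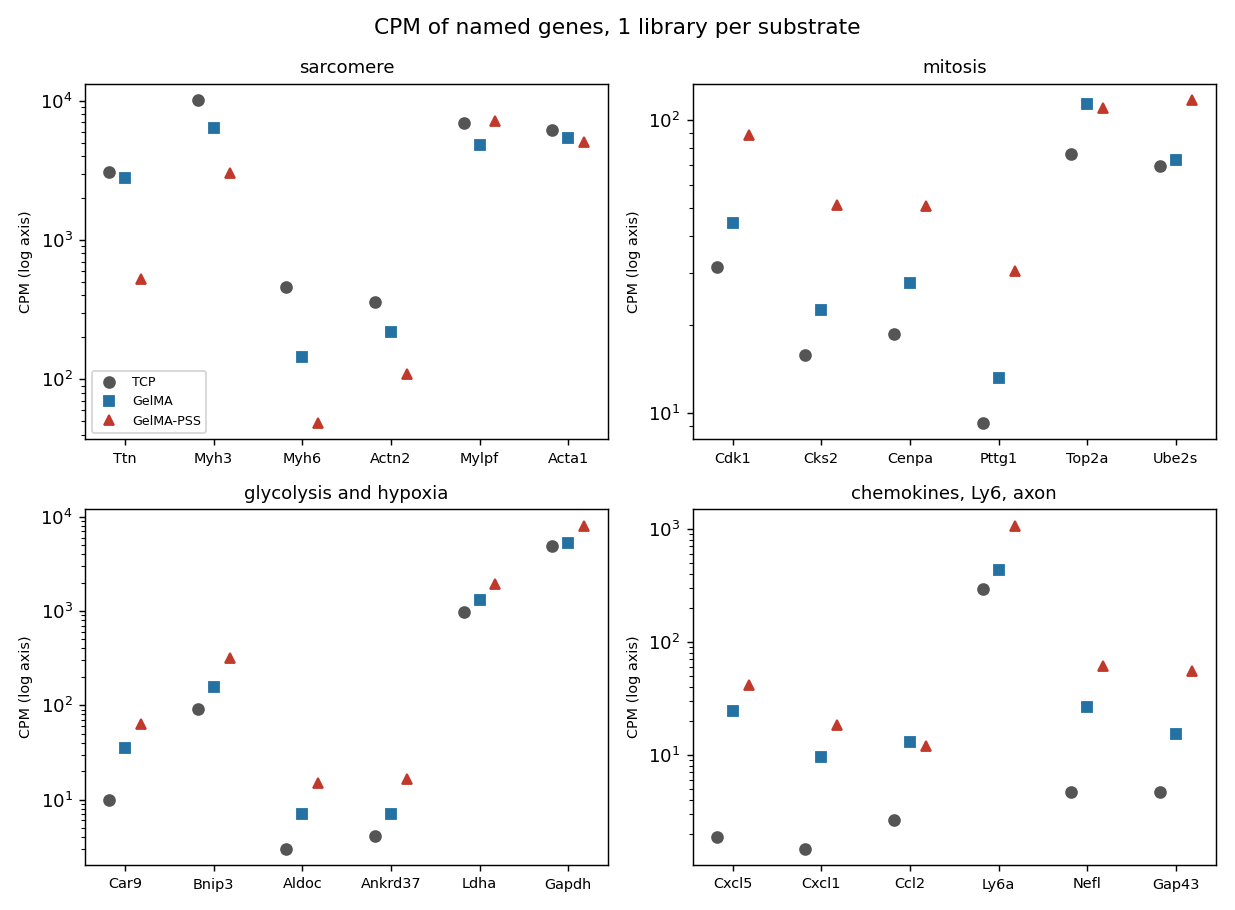
CPM of 24 named genes on a log axis, with a circle for TCP, a square for GelMA and a triangle for GelMA-PSS (1 library each, no error bars). Ttn is close on TCP and GelMA and lower on GelMA-PSS, Mylpf and Acta1 differ little, and Car9, Nefl and Cxcl5 step up from TCP through GelMA to GelMA-PSS.

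Inflammatory genes also had members that rose. Of 37 kept chemokine, cytokine and NF-kB genes, 12 were higher and 0 lower by 2-fold, with a median of 0.51. After the correction 8 were higher and the median was 0.41. Cxcl5, which attracts neutrophils (chr5:90759360-90761624), had a CPM of 1.88 on TCP, 24.2 on GelMA and 41.2 on GelMA-PSS. This is a 21.9-fold higher CPM than on TCP, with an interval of 19.2 to 25.1. Cxcl1, which signals through the same receptor, read 1.47, 9.56 and 18.2 CPM. For Ccl2, which attracts monocytes, the values were 2.64, 12.9 and 11.98, so that the values on GelMA and GelMA-PSS were close.

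Il33, an alarmin stored in the nucleus, read 55.7, 87.6 and 176 CPM, a ratio of 1.65. Mif, the most abundant gene of the list, read 256, 402 and 791 CPM, a ratio of 1.62. Both rose in order from TCP through GelMA to GelMA-PSS. The macrophage markers Adgre1, C1qa and C1qb had 0 counts on both substrates, and 9 of the 12 macrophage markers were under 1 CPM on both, with a summed CPM of 5.44 on TCP and 6.27 on GelMA-PSS.

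Class I MHC genes and genes of antigen processing had a median of 0.71, with 7 of 28 higher and 0 lower. The corrected median was 0.46, with 3 higher. H2-D1, a classical class I gene, read 68.5 CPM on TCP, 78.9 on GelMA and 160 on GelMA-PSS, a ratio of 1.22. The other 6 that rose were H2-Q genes, near copies of each other among which reads may be split. Interferon-stimulated genes had a smaller median of 0.34 (-0.01 with TPM), and 4 of 34 rose. These were Ifitm1, Ifitm2 and Ifitm3, whose membrane proteins block virus entry, and Ly6e, with ratios of 2.40, 1.10, 1.28 and 1.24. After the correction 2 genes of the list were higher, Ifitm1 (1.90) and Ly6e (1.16), while Ifitm2 and Ifitm3 were at 0.56 and 0.71.

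Of the pathways that steer muscle growth, the insulin-like growth factor, PI3K and mTOR list had 6 of 41 genes lower and 1 higher, with a median of -0.43. Its median transcript had 5784 bases, and after the correction the median was -0.17 with 1 gene lower and 1 higher. Foxo1, which drives atrophy genes, was lower (-1.25, corrected -0.77), and so was the regulatory subunit Pik3r1 (-1.14, corrected -0.82). Igfbp2, which binds IGF outside the cell, rose from 143 CPM on TCP and 239 on GelMA to 596 on GelMA-PSS, a ratio of 2.05. Igf1 was scarce, at 2.70, 2.18 and 1.58 CPM, and Mtor read 115, 123 and 69.2 CPM, a ratio of -0.72 that was -0.19 after the correction.

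In the Wnt list 7 of 42 genes fell and 2 rose, with a median of -0.45 (corrected -0.25, with 5 lower and 2 higher). The receptor Fzd9 and the ligands Wnt10a and Wnt9a had ratios of -1.40, -1.26 and -1.26, and corrected ratios of -1.37, -1.18 and -1.19. The target gene Axin2 went from 3.35 CPM on TCP and 2.24 on GelMA to 0.972 on GelMA-PSS (-1.14, corrected -0.98). Dkk2, a secreted antagonist, rose from 2.69 and 6.20 to 10.8 CPM (1.67). Ctnnb1, which encodes beta-catenin, was level at 466, 521 and 472 CPM, and the coreceptor Lrp5 read 70.5, 110 and 88.4 CPM.

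Among genes of the TGF-beta, activin and BMP pathway, 5 of 37 fell and 2 rose, and 34 had negative ratios (median -0.39). After the correction 2 were lower and 2 higher, and the median was -0.27. The activin and myostatin antagonist Fst, follistatin, fell from 187 CPM on TCP and 89.0 on GelMA to 58.0 on GelMA-PSS, a ratio of -1.68. The stress cytokine Gdf15 rose (1.24). In the Notch list 1 of 23 genes fell, the coactivator Maml2 (-1.13, corrected -0.83). In the FGF, syndecan and glypican list 1 of 34 fell, the receptor Fgfr3 (-1.22, corrected -1.04), and 1 rose, the ligand Fgf7 (1.21, corrected 0.97). After the correction 2 were lower and 1 higher, and Fgf7 was not among them. Fgfr3 and Fgf7 were low in level, at most 12.6 CPM.

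The matrix lists were mixed. Collagen chains had a median of -0.16 that was 0.18 after the correction and 0.08 with only genes of CPM 10 or more, so no direction is given. Of 26 chains, 3 fell and 0 rose, whereas 2 were lower and 3 higher after the correction. Col25a1 and Col13a1, which encode transmembrane collagens, had ratios of -1.85 and -1.84 at low levels, and Col12a1 had -1.38 (corrected -0.75). Col3a1, the most abundant chain, read 1907 CPM on TCP, 3221 on GelMA and 2721 on GelMA-PSS. Basement membrane genes likewise changed the sign of their median with the correction (-0.17 to 0.27).

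Matrix genes that rose included osteopontin, Spp1, a secreted glycoprotein of injured muscle, at 2341 CPM on TCP, 4969.7 on GelMA and 5684 on GelMA-PSS, a ratio of 1.28 that was 0.88 after the correction. Tenascin C, Tnc, rose from 117 to 242 on GelMA and 243 on GelMA-PSS (1.05), and its corrected ratio was 1.45. Of 29 matricellular and proteoglycan genes 3 rose, these and the hyaluronan synthase Has1 (1.69), and 1 fell, thrombospondin 1, Thbs1 (-1.20, corrected -0.93). Of 26 collagen processing genes 1 rose, the crosslinking enzyme Loxl2 (1.54), and 0 fell. In the basement membrane list 1 of 26 rose, Fbln1 (1.51), and 3 fell, Mfap4 (-1.35), the proteoglycan perlecan, Hspg2 (-1.05, corrected -0.15), and nidogen 2, Nid2 (from 210.5 CPM on TCP to 105 on GelMA-PSS, corrected -0.77). Among 29 matrix proteases and their inhibitors 3 rose, the urokinase receptor Plaur (1.82), Timp1 (1.23) and Htra1 (1.03), and 1 fell, Adamts1 (-1.10). After the correction 1 was higher, Plaur (1.56), with Timp1 at 0.75, Htra1 at 0.91 and Adamts1 at -0.92. Of the 43 integrin and focal adhesion genes kept, 2 fell and 0 rose, and 1 was lower and 1 higher after the correction. Ptk2, the focal adhesion kinase, read 107, 113 and 103 CPM, and Npnt, an integrin ligand, read 971, 700 and 535 CPM, a ratio of -0.86. Klf4 read 153, 123 and 131 CPM. The caveolin of muscle, Cav3, read 70.5, 47.2 and 41.3 CPM, a ratio of -0.76 that was -1.10 after the correction. Of the targets of YAP, TAZ and TEAD, 4 of 27 fell and 1 rose, with a median of -0.36, and 2 were lower and 1 higher after the correction.

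In 5 further lists, the median moved toward or past 0 with the length correction. All 82 cytosolic ribosomal protein genes had positive ratios and 53 rose, with a median of 1.06. Their median transcript has 896.5 bases, and the corrected median was 0.59 with 2 higher. For complex I of the respiratory chain the median was 0.54 with 0 of 37 past 2-fold, and 0.03 after the correction. For complexes II to V it was 0.51 and 0.10. Mitochondrial ribosomal proteins went from 0.42 to 0.09. Proteasome subunits had a median of 0.32, which was -0.05 after the correction and -0.09 with TPM.

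Chromatin regulators of high molecular weight lay on the other side of 0. All 46 had negative ratios and 8 fell, with a median of -0.77, while the corrected median was -0.23 with 0 lower. Kmt2d, a histone methyltransferase with a transcript of 19823 bases, read 77.6 CPM on TCP, 114 on GelMA and 21.3 on GelMA-PSS, a ratio of -1.82 and a corrected ratio of -0.79. Unlike the sarcomere genes, this list was higher on GelMA than on TCP, by a median of 0.18.

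On the log2(CPM + 1) scale, the largest increases of single genes were in Serpinb6e, Serpinb6c, Scd4, Cxcl5 and Prl2c3. Serpinb6e, a serine protease inhibitor on chromosome 13, had 3 counts on TCP, 0 on GelMA and 8150 on GelMA-PSS, a ratio of CPM of 1826 with a counting interval of 625 to 8857. Its neighbour Serpinb6c had 1.77, 0.803 and 74.96 CPM. Scd4, a stearoyl-CoA desaturase, had 1.81, 2.38 and 45.6 CPM, and its relative Scd3 rose as well (1.83). Reads may be split among these paralogs. Of the 42 genes of cholesterol and fatty acid synthesis, these 2 were the ones that rose, 0 fell, and the median was -0.09.

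For both Serpinb6 genes and Scd4 the TCP and GelMA libraries were low and GelMA-PSS stood apart, as it did for 2410017I17Rik, at 0.287, 0.297 and 12.9 CPM. The prolactin family genes Prl2c2, Prl2c3 and Prl2c4, near copies that encode proliferins, showed a graded order instead. Prl2c3 read 1.91, 10.2 and 39.2 CPM. Apc2, a relative of the Wnt inhibitor Apc, was lowest on GelMA, at 34.5 CPM on TCP, 16.3 on GelMA and 105 on GelMA-PSS.

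Defining markers of muscle were present in both libraries. All 12 markers of myoblasts and myotubes were kept, with a summed CPM of 29317 on TCP and 18938 on GelMA-PSS. Of the 12, 1 rose, Myf5, and 1 fell, Myh3, with a median of -0.19 (corrected -0.38). Myh3 alone went from 10182 CPM on TCP to 3037 on GelMA-PSS. The highest CPM among the 12 markers was that of Myh3 on TCP and of Acta1 on GelMA-PSS. Of 10 endothelial markers 2 were kept, of 10 adipocyte markers 4, and of 10 bone and cartilage markers 4. The endothelial list summed to 4.44 CPM on TCP and 7.13 on GelMA-PSS. Of its 2 kept genes, Flt1 rose from 1.28 to 3.68 CPM (1.04, corrected 1.41), and Vwf was at -0.02. Among the adipocyte markers Plin4 fell (-1.28, corrected -0.95), and the other 3 had positive ratios inside 2-fold. All 4 bone and cartilage markers had negative ratios inside 2-fold, with a median of -0.34, and 1 was lower after the correction. Of 12 fibroblast and mesenchymal markers 10 were kept and 1 rose, Ly6a (1.85), and their summed CPM of 3631 on TCP and 5358 on GelMA-PSS was mostly Col3a1. The median of the 10 was 0.09 (-0.17 with TPM), and 4 had negative ratios, from -0.19 for Pi16 to -0.97 for Tcf4. Of 10 epithelial markers 4 were kept, and the keratin gene Krt19 rose from 6.78 CPM on TCP and 14.9 on GelMA to 46.7 on GelMA-PSS (2.62), while Krt18 had 0 counts on both. The median of the 4 was -0.14, with Cdh1 at -0.82, Krt14 at -0.37 and Ocln at 0.10. The part of other cell types in the results was not tested.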

How the data were processed

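RNA-seq counts were analysed from c2c12 cells on TCP, GelMA and GelMA-PSS, with 1 library each. The deposited values are raw counts, listed by gene symbol. The submitters' processing notes name TopHat, edgeR, mm10 and hg19 without a role, and the counting tool and annotation are not given in the sources used here. The labels name a SMARTER kit and the methods a TruSeq kit. Which was used, and whether all 3 libraries were made alike, is not known. The part of library preparation in the ratios that follow transcript length was not tested. The 23282 lines were summed to 23238 symbols and scaled with TMM factors from all 3 libraries (edgeR 4.0.16, R 4.3.3), and ratios were taken on log2(CPM + 1). No count model was fitted, since every substrate has a single library. GENCODE vM21 gave transcript length and GC content, for the transcript with the longest coding sequence (22197 symbols matched directly, 669 by older names, 372 unmatched), and 2 loess fits with a span of 0.3 gave the correction (statsmodels 0.14.6). Intervals of CPM ratios cover counting error only. The steps were tested on simulated data.

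The genes and the 51 lists were chosen with earlier results of these data known, and 4 further lists and the ACGTG motif were added after the values were seen. Genes are named when among the 10 largest changes in each direction, the 8 largest after correction with a CPM of 10 or more, up to 4 members past 2-fold in each direction and the 2 most abundant of a list, members of lists of 12 or fewer genes, or genes the study followed singly. Others were chosen after their values were seen, and some results are not reported here. Alternatives covered the fold threshold, pseudocount, filter, scaling, length correction and repeated symbols.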

Additional observations from a re-analysis of the deposited data

How the results depend on the processing

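There is 1 library per substrate. No paired analysis was possible because no substrate has a second library, and leaving out a library would leave nothing to compare. Depth limits little above a CPM of 10, and 3 counts correspond to 0.0246 CPM on TCP and 0.0166 on GelMA-PSS.

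Beside 490 genes higher and 412 lower, a 1.5-fold threshold gave 1734 and 1508, and a 4-fold threshold 32 and 22. A pseudocount of 0.1 CPM gave 692 and 620, and one of 5 CPM gave 273 and 196. The length correction gave 268 higher and 338 lower, that for length and GC content 261 and 303, and TPM without TMM factors 142 and 1037. Total count scaling gave 338 and 576, with more genes lower than higher. It, the scalings not yet named, the filters and the choice of line for repeated symbols changed each count by at most 1.5-fold. Spearman's rho between the ratio and transcript length was -0.52, and it was -0.60 with a CPM of 10 or more, -0.49 with the longest transcript and -0.46 with the mean transcript length. The median ratio of 50 lists moved by more than counting error, taken as the median distance of the members' ratios to their own interval limits, in 228 of 600 values. No list median past 2-fold and no named gene past 2-fold changed sign. Some list medians inside 2-fold did change sign, most often with TPM and no TMM factors. Of 174 named genes past 2-fold, 174 kept their sign and 104 stayed past 2-fold after the length and GC correction. Of these 174, 120 stayed past 2-fold with TPM and no TMM factors. The causes of these shifts were not tested.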

Other observations

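The neurofilament, Ly6, nonmuscle cytoskeleton and S100 lists were written after the values had been seen. Of 13 kept neurofilament and growth cone genes, 7 rose and 1 fell, with a median log2 ratio of 1.06 (corrected 0.65, with 5 higher and 1 lower). Nefl, the light neurofilament, had a CPM of 4.67 on TCP, 26.5 on GelMA and 61.0 on GelMA-PSS, a ratio of 3.45 with a corrected ratio of 3.44. Gap43, a membrane protein of growing axons, read 4.67, 15.4 and 54.8 CPM, and the stathmin Stmn2, which binds tubulin dimers, 33.0, 49.0 and 158 CPM. The microtubule protein Mapt, tau, was the gene that fell, from 17.6 and 8.18 to 3.00 CPM. Map1b, which binds microtubules, read 253, 329 and 135 CPM, a ratio of -0.90 (corrected -0.26). Of the 10 neuron and Schwann cell markers, 5 were under 1 CPM on both substrates, and Tubb3, the most abundant, read 47.1, 60.4 and 99.0 CPM, a ratio of 1.06 (corrected 0.91). The 5 that were kept had a median of 0.32 (-0.07 with TPM). The part of other cells in this was not tested.

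Of 14 kept genes of the Ly6 and Ifi200 families, 11 rose, with a median of 1.47 (corrected 1.13, 10 higher). Ly6a, which encodes the surface protein Sca-1, read 296, 431 and 1071 CPM, and Ly6c1 242, 399 and 887 CPM. Members of both families are close copies, so reads may be split among them. Nonmuscle actin, myosin and intermediate filament genes had a median of 0.87, with 10 of 24 higher, among them Vim (1.01), Actg1 (1.08) and Myl12b (1.40). After the correction the median was 0.62 and 3 were higher, with Vim at 0.89, Actg1 at 0.88 and Myl12b at 1.24. The nonmuscle heavy chains Myh9 and Myh10, with longer transcripts, had ratios of -0.45 and -0.47, and 0.03 and -0.03 corrected. Of 21 S100 and annexin genes, 8 rose and 1 fell, led by S100a10 (1.84) and with Anxa8 the one that fell (-1.50), with a median of 0.85. After the correction the median was 0.45, and 1 gene was higher and 1 lower.

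Large decreases outside the sarcomere included the endocytic adaptor Pacsin1 (8.24 CPM on TCP, 4.17 on GelMA and 0.905 on GelMA-PSS), the matrix protein Adamtsl2 (31.2, 15.4 and 5.72 CPM) and 2310065F04Rik (97.3, 93.6 and 22.4 CPM). Small nucleolar RNAs, with a median length of 90 bases, rose in 21 of 91 genes, with a median of 0.63 that was -0.06 after the correction.

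Heat shock genes had a median of -0.06 (0.03 at CPM of 10 or more), stress response genes -0.19, atrophy and autophagy genes 0.01 (-0.40 with TPM, -0.09 with total counts and -0.05 corrected), immediate early and Kruppel-like genes 0.16 (-0.24 with TPM) and NRF2 targets 0.35 (-0.06 with TPM). Histones were at 0.33 (-0.03 corrected), cadherins and catenins at -0.35 (-0.05 corrected), collagen processing enzymes at 0.28 (-0.12 with TPM), matricellular genes at 0.20 (-0.14 with TPM) and matrix proteases and their inhibitors at 0.26 (-0.05 with TPM). Fbxo40, an atrophy ligase of muscle that acts on Irs1, was low and fell from 5.38 CPM on TCP and 1.90 on GelMA to 0.707 on GelMA-PSS (-1.90).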
